A study of Mus musculus with 11 samples.

Results

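The genes described here encode the machinery that removes the RNA cap and digests RNA from its 5′ end: the decapping enzyme Dcp2 with its cofactors Dcp1a, Dcp1b, Edc3 and Edc4, the 5′ to 3′ exonucleases Xrn1 and Xrn2, the cap quality-control enzyme Dxo, and the hydrolases Nudt16 and Dcps. These 10 genes of the 54838 in the count files were found by matching Ensembl identifiers to gene symbols of the mouse assembly GRCm38. In mRNA turnover, shortening of the poly(A) tail is usually followed by cleavage of the cap by DCP2, which leaves a 5′ monophosphate from which XRN1 degrades the RNA in the cytoplasm. XRN2 acts in the nucleus, where it degrades the RNA that RNA polymerase II is still making after 3′ end cleavage and so takes part in ending transcription. DXO removes incomplete or non-canonical caps, and methylation of the ribose of the first transcribed nucleotide, the mark that CMTR1 places, is known to protect RNA from DXO.

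Total RNA depleted of ribosomal RNA was sequenced from E14 cells, a mouse embryonic stem cell (ESC) line, grown with leukaemia inhibitory factor (LIF) and serum replacement on gelatin. Cells received a control scramble siRNA (3 libraries), CMTR1 siRNA 1 (4 libraries) or CMTR1 siRNA 2 (4 libraries) for 36 h, so that all groups were transfected and none was untreated. The comparison of each CMTR1 siRNA with the control addresses how transcript levels differ when CMTR1 is targeted, and the comparison of siRNA 2 with siRNA 1 shows where the reagents differ. The methods of the paper speak of biological replicates, but for fewer libraries than the CMTR1 siRNA groups hold, and the labels do not state that each library came from a separate culture. The p-values therefore measure the spread between these libraries, which may be technical. Between 6738478 and 8382318 reads were counted per library, and levels are given as counts scaled to a library total of 1000000 counted reads (CPM). Each RNA is a share of the library, so less RNA per cell and fewer cells expressing it cannot be told apart.

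Control libraries held 21.3, 21.7 and 17.9 CPM of Cmtr1, the target. It was at 21.1, 21.3, 16.2 and 18.0 CPM with siRNA 1, and at 15.6, 16.8, 16.4 and 19.5 CPM with siRNA 2. The libraries of the groups overlapped. The log2 fold change against control was −0.09 (SE 0.11) with siRNA 1 and −0.25 (SE 0.11) with siRNA 2, with adjusted p = 0.743 and 0.144 in edgeR's quasi-likelihood test (Benjamini-Hochberg). With siRNA 2 the 95% interval ran from −0.46 to −0.03 and the unadjusted p was 0.0257. A knockdown did not pass the test in these counts, and they do not check the labels. Of the Cmtr1 exon bases, 36.3% lie in exons of Gm28043 or Gm28052 on the same strand and 47.2% opposite Ccdc167, so its count is uncertain. All groups are named below by their labelled siRNA.

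The cells expressed the markers of ESCs. The 8 ESC markers examined summed to 1965 ± 51.9 CPM in control (SD, n = 3), 1728 ± 71.3 CPM with siRNA 1 and 1777 ± 33.8 CPM with siRNA 2 (n = 4 each), and every siRNA library lay below every control library. Of the 8, 5 fell with siRNA 1 and 3 with siRNA 2, where 1.97% and 3.55% of all genes tested were called lower. Nanog fell by 0.57 and 0.54 on the log2 scale with siRNA 1 and siRNA 2 (adjusted p = 5.44e-05 and 5.04e-05, edgeR quasi-likelihood test with Benjamini-Hochberg), Esrrb by 0.34 and 0.55 (adjusted p = 0.000528 and 6.84e-08), and Zfp42 by 0.32 and 0.31 (adjusted p = 0.00154 and 0.00123). With siRNA 1 so did Dppa5a, by 0.25 (adjusted p = 0.00313), and Pou5f1, by 0.16 (adjusted p = 0.0332), whose call was lost on leaving out any of 6 libraries (up to 0.192, edgeR). Pou5f1 was the most abundant of them, at a mean of 462 CPM. Markers of other lineages were lower: the control sums were 43.5 CPM for 5 primitive endoderm markers, 39.6 CPM for 4 trophoblast markers, 51.9 CPM for 6 fibroblast markers, 104 CPM for 4 neural markers and 7.50 CPM for 4 mesoderm markers. With siRNA 1 these sums were 42.4, 44.0, 51.0, 112 and 7.76 CPM, and with siRNA 2 they were 41.7, 33.8, 58.5, 105 and 6.71 CPM. Within these sums Col1a1 rose with siRNA 2 by 0.75 on the log2 scale (adjusted p = 6.42e-05, edgeR quasi-likelihood test) and Col3a1 fell by 1.42 (adjusted p = 0.0180), a call lost on leaving out any of 3 libraries (up to 0.136). Col3a1 was near the limit of detection, with 2 to 17 reads per library, and DESeq2 gave it no adjusted p. It passed the filter on low counts through control and siRNA 1 libraries. All siRNA 2 libraries were below 1 CPM (0.247 to 0.852), so its fall is described only. Between the siRNAs Tfap2c (−0.40), Pax6 (−0.68) and Col1a1 (0.76) differed (adjusted p = 0.000549, 0.000312 and 2.05e-05, edgeR). So did Esrrb (−0.21, adjusted p = 0.0312, edgeR), a call lost with DESeq2 and on leaving out any of 5 libraries (up to 0.123). The most abundant genes of these lists were Dab2, Tfap2c, Pdgfra, Tubb3 and Eomes, and no marker was without reads in all libraries. Whether the lower ESC markers have a part in any of the differences below was not tested.

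In control cells all 10 genes were detected, at levels that spanned a wide range. Per kilobase of annotated exon, Xrn2 was the most abundant at 37.2 ± 2.30 CPM per kb (SD, n = 3), followed by Edc4, the scaffold of the decapping complex, at 29.8 ± 1.04 CPM per kb. Dcp2 was at 26.5 ± 0.499 CPM per kb. Dcps, which hydrolyses the cap left on the short fragment after 3′ to 5′ decay, was at 25.4 ± 0.571 CPM per kb, and the control libraries of Dcp2 and Dcps overlapped on this scale. All other neighbours in the order were separated in the control libraries. Dxo was at 12.5 ± 0.590, Dcp1a at 11.1 ± 0.439, Edc3 at 9.66 ± 0.573 and Xrn1 at 6.49 ± 0.144 CPM per kb. Of the DCP1 paralogs, which bind and activate DCP2, Dcp1b had the lower level at 2.31 ± 0.129 CPM per kb. Nudt16, which can remove caps from small nucleolar RNAs, was near the limit of detection at 0.384 ± 0.209 CPM per kb, with 3 to 15 reads per library over all 11 libraries. The scale rests on annotated exon length, which runs from 1451 bases for Dcps to 18585 bases for Xrn1 and may exceed the transcript made in these cells.

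**Figure D1:**
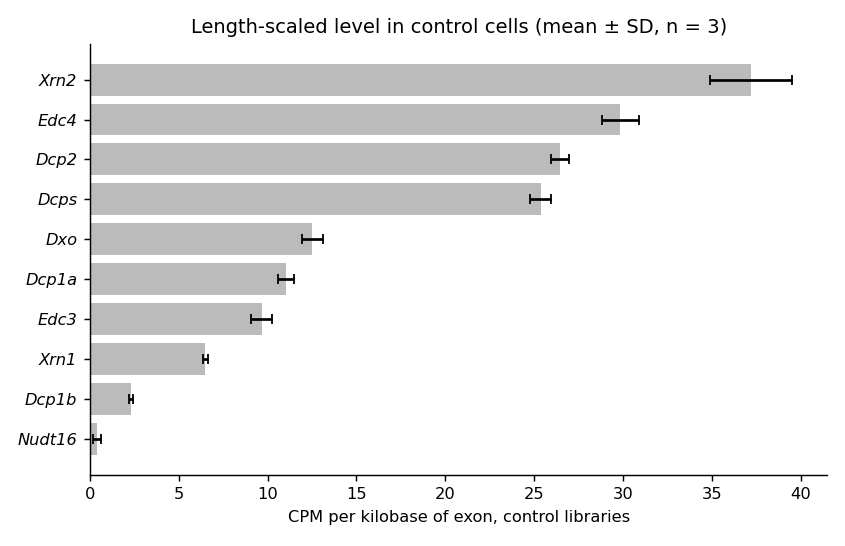
Level of each decapping and 5′ to 3′ decay gene in control cells, in CPM per kilobase of exon (bars, mean of 3 libraries; error bars, SD). Xrn2 is the highest at 37.2 CPM per kb and Nudt16 the lowest at 0.384 CPM per kb.

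Promoter sequences were compared to see what the genes share at their start sites. Promoters of 300 bases, 250 before and 50 after the start, were taken from RefSeq (GRCm38.p6) for 8 of the genes. Dcp2 and Dxo were not examined, so the promoter counts below describe the other 8 genes only. After the sequences had been seen, the motif CGGAAG, the core recognised by ETS family factors, was searched on both strands. It was present in 6 of the 8 promoters, against 29.2% of the 13874 promoters of genes tested for expression and 16.9% of all 32851 promoters. The 7 matches are shown with 12 bases on either side on the strand of the gene, with the motif or its reverse complement CTTCCG in capitals.
Dcp1a, chr14:30479569-30479598, plus strand: tgggccggtaggCGGAAGtggagggctgac
Dcp1a, chr14:30479461-30479490, plus strand: gggggcctgtctCTTCCGgcagacgcggcc
Dcp1b, chr6:119175193-119175222, plus strand: gtccccaaatgcCGGAAGgtcgccccgccg
Edc3, chr9:57708521-57708550, plus strand: gccctgtgtcaaCGGAAGtgacatcactcc
Edc4, chr8:105880877-105880906, plus strand: ggtcagtgggacCGGAAGtggaggcggttg
Nudt16, chr9:105131782-105131811, minus strand: tctgcaagaaccCGGAAGtgcgagcctcga
Xrn2, chr2:147012991-147013020, plus strand: ggtatgacgtaaCTTCCGgccgctgaacgc
The promoters of Dcps and Xrn1 did not hold these letters. The motif lies between 92 bases before the start, in the second Dcp1a match, and 17 bases after it, in the first. A match describes the sequence and is not evidence of binding. The first transcribed base annotated, which carries the ribose that CMTR1 methylates, was A in 4 of the 8 genes (Dcp1a, Edc4, Nudt16 and Dcps) and G in the other 4. Of the 13874 promoters of genes tested, 4041 start with A and 6452 with G (75.6% together).

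The genes lie on chromosomes 2 (Xrn2), 6 (Dcp1b), 8 (Edc4), 9 (Edc3, Xrn1, Nudt16 and Dcps), 14 (Dcp1a), 17 (Dxo) and 18 (Dcp2) of GRCm38. The exons of Dcp1a (chr14:30479535-30527063, plus strand, ENSMUSG00000021962), Dcp2 (chr18:44380502-44424969, plus strand, ENSMUSG00000024472), Dcp1b, Xrn2 and Nudt16 overlap no exon of another gene. The strand setting of the counting is not given in the sources used here, so reads of genes that overlap on opposite strands may not be told apart. This applies most to Edc3, where 22.1% of exon bases lie opposite Clk3, and less to Dcps (7.65%), Xrn1 (4.24%) and Dxo (0.306%). Of the Edc4 exon bases, 8.33% are shared with Nrn1l on the same strand.

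On transfection of CMTR1 siRNA 1, Dcp2, the catalytic subunit of the decapping enzyme, fell. The control libraries held 235, 231 and 226 CPM of Dcp2, and the siRNA 1 libraries 193, 213, 214 and 202 CPM. All 4 siRNA 1 libraries were below all 3 controls. The mean fell from 230 ± 4.34 CPM (SD, n = 3) to 206 ± 9.84 CPM (SD, n = 4), a log2 fold change of −0.16 (SE 0.05, 95% interval −0.26 to −0.07) with adjusted p = 0.0340 in edgeR's quasi-likelihood test (Benjamini-Hochberg over 16073 genes). Differences with an adjusted p of at most 0.05 are called here. The call for Dcp2 was kept under 8 other settings (adjusted p 0.0107 to 0.0497). It was lost on leaving out control replicate 1, 2 or 3 (adjusted p = 0.125, 0.126 and 0.0671) or siRNA 1 replicate 1, 2 or 4 (adjusted p = 0.138, 0.0521 and 0.0923), where the log2 fold change stayed between −0.18 and −0.14 in edgeR's test.

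Dcp2 was the sole call among the 10 genes with siRNA 1 (10.0%), 1 lower and 0 higher. Over all 16073 genes tested, 4.67% were called, 2.71% as higher and 1.97% as lower. These 751 calls became 355 without control replicate 2, 450 without control replicate 3 and 425 without siRNA 1 replicate 2, so the share is itself uncertain. With 10 genes, 1 call is near that background and is not a result about the group. The libraries of control and siRNA 1 did not overlap for 2 of the 10 genes, Dcp2 and Dcps, against 15.5% of all genes. Dcps was at 36.4, 37.7 and 36.2 CPM in control and at 42.7, 38.3, 43.8 and 39.7 CPM with siRNA 1. Its log2 fold change of 0.16 (SE 0.08) had an adjusted p of 0.316 in edgeR's quasi-likelihood test (Benjamini-Hochberg) and was not called. With TMM scaling, which rescales libraries to the bulk of genes, 1 of the 10 genes did not overlap.

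On transfection of CMTR1 siRNA 2, Dcp1a, the more abundant of the DCP1 cofactors, rose. Its controls were at 88.5, 95.1 and 89.2 CPM, and the siRNA 2 libraries at 111, 108, 95.4 and 103 CPM. The siRNA 2 libraries lay above the controls in 4 of 4 cases, though the lowest of them was close to the highest control. The mean rose from 90.9 ± 3.62 CPM (SD, n = 3) to 104 ± 6.79 CPM (SD, n = 4), a log2 fold change of 0.20 (SE 0.06, 95% interval 0.08 to 0.31) with adjusted p = 0.0227 in edgeR's quasi-likelihood test (Benjamini-Hochberg). The call was lost with TMM scaling (log2 fold change 0.17, adjusted p = 0.0532 in edgeR), where the groups also overlapped, and with DESeq2 (0.17, adjusted p = 0.0995); over 8 other settings the adjusted p ran from 0.0172 to 0.0995. It was also lost on leaving out control replicate 1 or 3 (adjusted p = 0.0940 and 0.102) or siRNA 2 replicate 1 or 2 (adjusted p = 0.0980 and 0.0602).

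Dcp1a was the sole call among the 10 genes with siRNA 2 (10.0%), 1 higher and 0 lower. Over all genes tested 9.72% were called, 6.17% as higher and 3.55% as lower, so this count too is near the background. These 1562 calls became 916 without control replicate 2, 807 without control replicate 3, 1007 without siRNA 2 replicate 1 and 958 with DESeq2. Dcp1a was also the sole gene of the 10 whose libraries did not overlap with control, against 19.4% of all genes. That number became 3 without control replicate 2 or siRNA 2 replicate 3, and 0 with TMM scaling. Dcp2 was at 240, 232, 218 and 236 CPM with siRNA 2, and these libraries overlapped the controls. Its log2 fold change was 0.01 (95% interval −0.09 to 0.10, adjusted p = 0.965, edgeR quasi-likelihood test with Benjamini-Hochberg), with a sign that turned under TMM, under DESeq2 and without Gm26917 in the library totals.

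**Figure D2:**
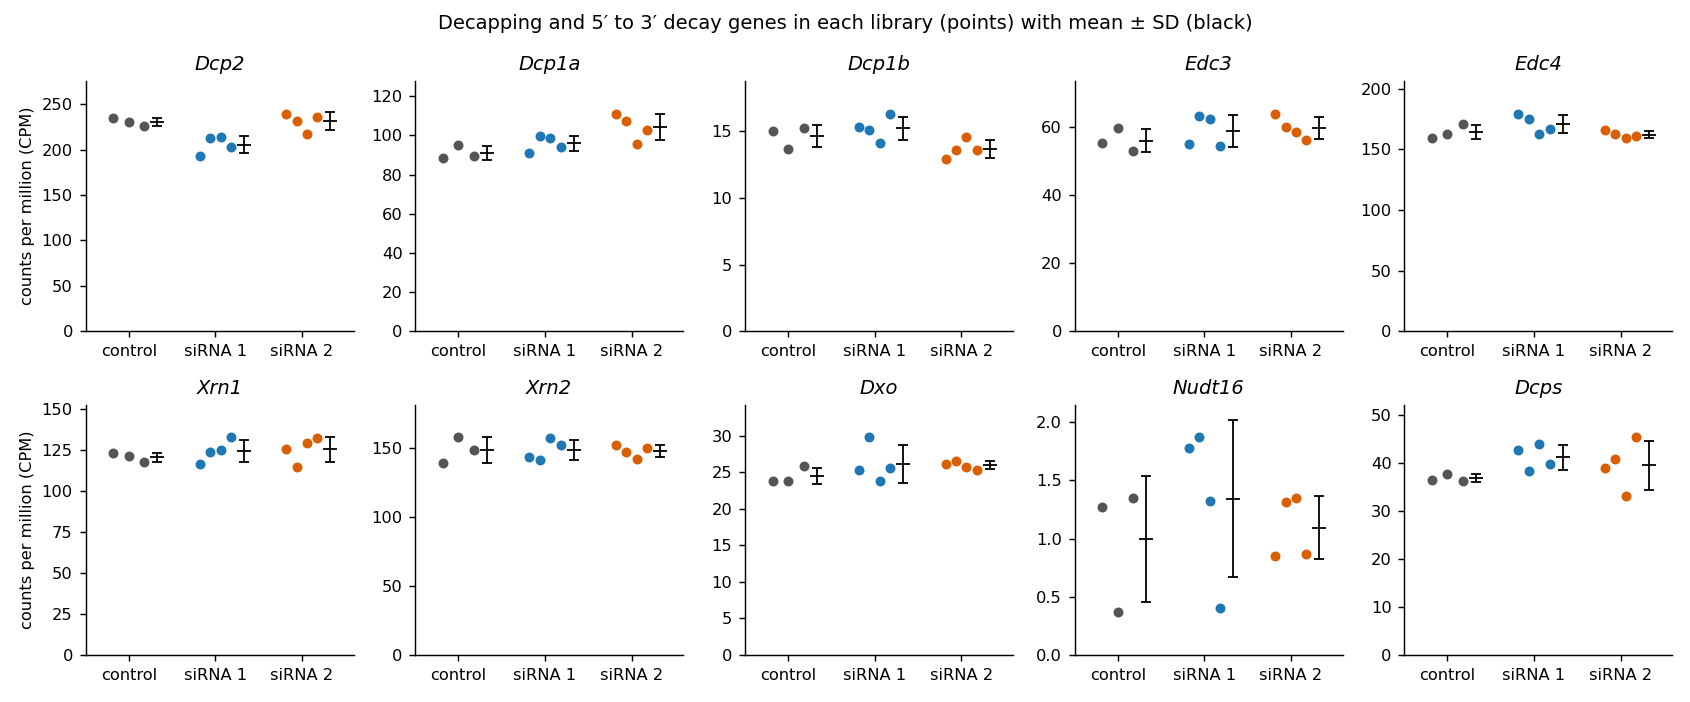
CPM of each decapping and 5′ to 3′ decay gene in every library (points; 3 control, 4 siRNA 1 and 4 siRNA 2 libraries) with the mean and SD of each group in black. Dcp2 lies below control in all 4 siRNA 1 libraries, and Dcp1a lies above control in all 4 siRNA 2 libraries. Relative to their mean, the points of Nudt16 scatter most.

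The siRNAs differed from each other in Dcp2. It was higher with siRNA 2 than with siRNA 1 in 4 of 4 libraries, with a log2 difference of 0.17 (SE 0.04, 95% interval 0.08 to 0.26) and adjusted p = 0.0122 in edgeR's quasi-likelihood test (Benjamini-Hochberg). This call was kept under 8 other settings (adjusted p 0.00773 to 0.0190). It was lost without siRNA 1 replicate 1 (0.14, adjusted p = 0.0645 in edgeR) and without siRNA 2 replicate 1 (0.15, adjusted p = 0.0591). Dcp1a differed by 0.12 (95% interval 0.01 to 0.23), which was not called (adjusted p = 0.176, edgeR quasi-likelihood test), so its call with siRNA 2 alone does not show that the reagents differ in this gene. Dcp2 was the sole call of 10 in this comparison, 1 higher and 0 lower, and the sole gene whose libraries did not overlap. Without siRNA 1 replicate 3 or siRNA 2 replicate 3, the genes without overlap numbered 3. Over all genes tested 7.44% were called, 4.49% as higher and 2.96% as lower, and the libraries of 11.8% did not overlap. These 1196 calls became 737 and 724 without siRNA 1 replicate 1 or 2, 751 without siRNA 2 replicate 1 and 740 with DESeq2.

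The other cofactors of decapping did not pass the test in any comparison. Dcp1b ranged from 12.9 to 16.3 CPM over the 11 libraries, and its log2 fold change was 0.06 with siRNA 1 and −0.10 with siRNA 2. Edc3, which binds DCP1 and DCP2 and promotes decapping, ranged from 53.2 to 64.1 CPM with log2 fold changes of 0.07 and 0.09. Edc4 ranged from 159 to 179 CPM with log2 fold changes of 0.06 and −0.02. Their adjusted p-values against control were between 0.448 and 0.874 (edgeR quasi-likelihood test, Benjamini-Hochberg). The widest 95% interval among them was that of Dcp1b with siRNA 2, from −0.32 to 0.12.

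The 5′ to 3′ exonucleases were measured closely and were not called. Xrn1 was at 120.6 ± 2.68 CPM in control (SD, n = 3), 124 ± 6.66 CPM with siRNA 1 and 126 ± 7.64 CPM with siRNA 2 (n = 4 each). The changes of 0.05 and 0.06 on the log2 scale had 95% intervals of −0.06 to 0.16 and −0.05 to 0.17. Xrn2 was at 148 ± 9.18 CPM in control, 148 ± 7.21 CPM with siRNA 1 and 147 ± 4.17 CPM with siRNA 2. Its log2 fold changes were 0.00 (95% interval −0.10 to 0.11) and −0.01 (−0.11 to 0.10). For these genes the intervals leave out changes larger than 0.17 on the log2 scale in either direction.

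The enzymes that act on incomplete caps, on nuclear RNA or on cap remnants were not called either. Dxo ranged from 23.8 to 29.8 CPM over the 11 libraries, with log2 fold changes of 0.10 (95% interval −0.08 to 0.27) for siRNA 1 and 0.08 (−0.09 to 0.26) for siRNA 2. Dcps had a log2 fold change of 0.11 (95% interval −0.06 to 0.27) with siRNA 2, where its libraries ranged from 33.0 to 45.3 CPM and overlapped the controls. Nudt16 ranged from 0.370 to 1.87 CPM, and its log2 fold changes of 0.44 (95% interval −0.38 to 1.26) and 0.16 (−0.69 to 1.01) show that a change was not detectable at this depth unless it was large. Leaving out single libraries moved the value with siRNA 1 between 0.04 (without control replicate 2) and 0.74 (without siRNA 1 replicate 4), neither called. For the other 9 genes the 95% intervals lay between −0.26 and 0.32 with siRNA 1 and between −0.32 and 0.31 with siRNA 2.

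**Figure D3:**
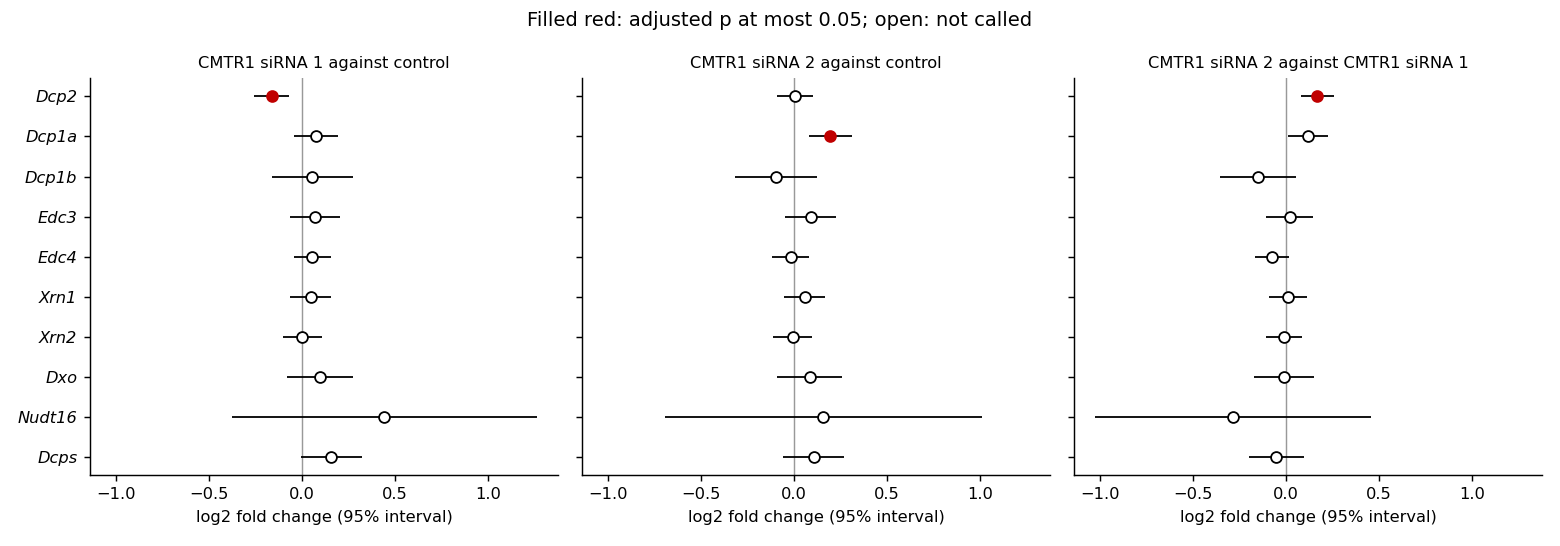
Log2 fold change (points) with 95% interval (lines) of each gene in the comparisons of siRNA 1 with control, siRNA 2 with control and siRNA 2 with siRNA 1; filled points passed an adjusted p of 0.05. Dcp2 is filled at −0.16 and 0.17 in the comparisons that involve siRNA 1 and Dcp1a at 0.20 with siRNA 2, and the interval of Nudt16 is the widest.

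The median log2 fold change over the 10 genes was 0.06 for siRNA 1 against control, beside 0.02 over all genes tested. For siRNA 2 against control it was 0.07, beside 0.03. With siRNA 1, 9 of the 10 values were above 0, against 56.8% over all genes, although that of Xrn2 turned to −0.02 with TMM scaling or DESeq2. With siRNA 2, 7 were above 0, against 57.1%, which is near the background. The comparisons share their control libraries, so they are not independent of each other. Between the siRNAs the median was −0.01 for the 10 genes and 0.00 for all genes. The direction of calls over all genes also depended on scaling. With siRNA 1, 435 genes were called higher and 316 lower by edgeR with total counts, 346 and 400 with TMM, and 199 and 322 with DESeq2. With siRNA 2 the counts were 991 and 571, 728 and 734, and 409 and 549.

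The ratio of reads between genes of one library does not depend on how libraries are scaled. Among the 9 genes with at least 50 reads in every library, 36 ratios were formed. The ratios of control and siRNA libraries did not overlap for 5 of them with siRNA 1 (13.9%), all of which involve Dcp2, and for 5 with siRNA 2 (13.9%), of which 3 involve Dcp1a. Over all pairs of the 9937 genes tested that held at least 50 reads in every library, 18.9% and 22.1% did not overlap, so these counts are not above the background. The ratio of Dcp1a to Dcp2 was the 1 of the 36 without overlap in both comparisons (2.78%, against 7.60% of all pairs with both siRNAs on the same side of control), and is described for this reason, without a test. It was 0.377, 0.412 and 0.395 in control. It was 0.472, 0.468, 0.461 and 0.466 with siRNA 1, and 0.464, 0.464, 0.439 and 0.435 with siRNA 2. All 8 siRNA libraries therefore held more Dcp1a reads per Dcp2 read than the 3 controls, which both comparisons share. The means were 0.395 ± 0.0175 (SD, n = 3), 0.467 ± 0.00477 and 0.450 ± 0.0157 (n = 4 each). With siRNA 1 the fall of Dcp2 passed the test, and with siRNA 2 the rise of Dcp1a did so with total-count scaling.

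**Figure D4:**
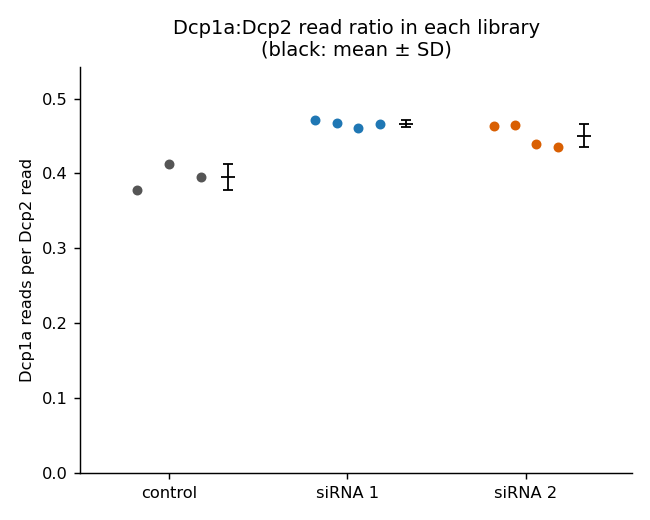
Reads of Dcp1a per read of Dcp2 in each library (points; 3 control, 4 siRNA 1 and 4 siRNA 2 libraries), with the mean and SD of each group in black. The controls lie between 0.377 and 0.412 and the siRNA libraries between 0.435 and 0.472.

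The genes most like Dcp2 and Dcp1a in pattern were sought by the root mean square difference of log2 CPM, centred on control, over the 11 libraries and 16072 genes. For Dcp2 these were Bcas2 (0.0354), Ddx21 (0.0398) and Hspd1 (0.0416), where the median over all genes compared was 0.221. Ddx21 fell with siRNA 1 by 0.17 on the log2 scale (adjusted p = 0.0188, edgeR quasi-likelihood test), while Bcas2 (−0.15, adjusted p = 0.101) and Hspd1 (−0.12, adjusted p = 0.114) were not called. For Dcp1a they were Tsnax (0.0358), Kpna6 (0.0389) and Alkbh5 (0.0408), with a median of 0.222 over all genes. These had log2 fold changes of 0.24, 0.22 and 0.22 with siRNA 2 (adjusted p = 0.00913, 0.00401 and 0.00614, edgeR quasi-likelihood test). They were chosen for this likeness, so these values describe them only.

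The genes that act before, beside or after decapping were examined as 6 lists of 71 genes, of which 69 passed the filter on low counts. Fhit was left out at 0.134 to 1.24 CPM. Exosc6 had no read in any library, which allows up to 3 reads, or 0.358 to 0.445 CPM, and covers counting error only. Whether the gene is silent or its reads were not counted under its identifier was not tested. With siRNA 1, 2 of the 69 were called (2.90%, against 4.67% of all genes), 1 higher and 1 lower. With siRNA 2, 5 were called (7.25%, against 9.72%), 3 higher and 2 lower. Between the siRNAs 8 were called (11.6%, against 7.44%), 4 higher and 4 lower. Leaving out single libraries moved these counts to between 2 and 4 with siRNA 1 and between 1 and 5 with siRNA 2. Between the siRNAs the range was 2 to 8. DESeq2 called 3 with siRNA 2 and 3 between the siRNAs. The genes of 5 lists are described below, and the last list enters these counts only.

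**Figure D5:**
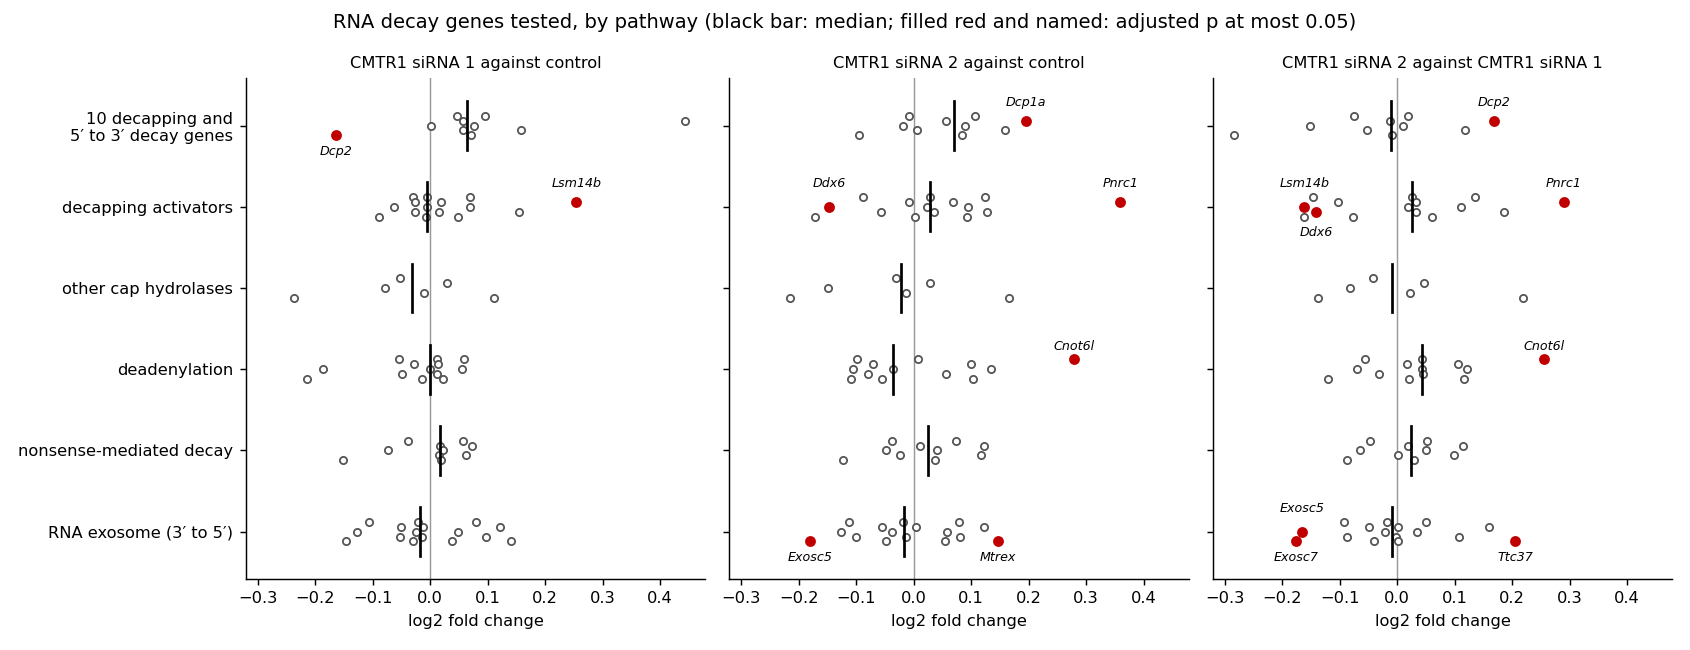
Log2 fold changes of the 10 genes and of 5 lists of RNA decay genes, by pathway (points; black bars, medians) in the comparisons of siRNA 1 with control, siRNA 2 with control and siRNA 2 with siRNA 1. Genes with an adjusted p of at most 0.05 are filled and named, and most genes of each list lie between −0.2 and 0.2.

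Of 15 activators of decapping and P-body proteins tested, 1 was called with siRNA 1 (6.67%, against 4.67% of all genes): Lsm14b, which encodes an RNA-binding protein of the LSM14 family, rose by 0.25 on the log2 scale (SE 0.05, adjusted p = 0.00239, edgeR quasi-likelihood test). It was at 90.8, 91.8 and 85.3 CPM in control and at 109, 106, 107 and 103 CPM with siRNA 1, above control in 4 of 4 libraries, and its call was kept in every alternative and on leaving out any library. With siRNA 2, 2 of the 15 were called (13.3%, against 9.72%). The RNA helicase Ddx6, which links translational repression to decapping, fell by 0.15 on the log2 scale (adjusted p = 0.0388, edgeR), from 337, 361 and 328 CPM to 322, 305, 294 and 314 CPM. Pnrc1, which can recruit the decapping complex to the nucleolus, rose by 0.36 (adjusted p = 0.00947, edgeR), from 21.1, 20.5 and 19.9 CPM to 29.1, 25.9, 26.6 and 24.0 CPM. None of the 7 subunits of the LSM1 to LSM7 ring was called in any comparison by edgeR's quasi-likelihood test. The nearest was Lsm4 with siRNA 2, at −0.17 on the log2 scale (unadjusted p = 0.00797, adjusted p = 0.0687, edgeR), which was called with TMM scaling and without siRNA 2 replicate 2.

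Between the siRNAs 3 of the 15 activators were called (20%, against 7.44% of all genes; so few calls say nothing of the list as a whole), with log2 differences of −0.14 for Ddx6, −0.16 for Lsm14b and 0.29 for Pnrc1 (adjusted p = 0.0381, 0.0372 and 0.0304, edgeR quasi-likelihood test). The medians of the list were −0.01 with siRNA 1, 0.03 with siRNA 2 and 0.03 between the siRNAs. Leaving out single libraries ended the call of Pnrc1 with siRNA 2 without control replicate 3 (adjusted p = 0.0533). That of Ddx6 was lost without control replicate 1 or 2, siRNA 1 replicate 2, or siRNA 2 replicate 2 or 3 (adjusted p = 0.0646, 0.266, 0.0503, 0.0737 and 0.0918). Between the siRNAs, the call of Pnrc1 was lost with DESeq2 (adjusted p = 0.0883) and without siRNA 1 replicate 1 or 4 or siRNA 2 replicate 1 (0.0872, 0.136 and 0.128, edgeR). That of Lsm14b was lost with DESeq2 (adjusted p = 0.0503), without a filter (0.0681) and without siRNA 1 replicate 1, 2 or 3 or siRNA 2 replicate 1, 3 or 4 (up to 0.138, edgeR). That of Ddx6 was lost without siRNA 1 replicate 2, 3 or 4 or siRNA 2 replicate 2, 3 or 4 (up to 0.117, edgeR).

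Among the 13 genes of poly(A) tail removal, Cnot6l, a deadenylase subunit of the CCR4-NOT complex, was the 1 called with siRNA 2 (7.69%, against 9.72% of all genes). It was at 32.4, 33.9 and 31.5 CPM in control and at 37.1, 38.4, 37.5 and 45.1 CPM with siRNA 2. All 4 siRNA 2 libraries were above control, and replicate 4 stood apart from the others. The rise was 0.28 on the log2 scale (SE 0.08, adjusted p = 0.0174, edgeR quasi-likelihood test), and without replicate 4 it was 0.21 and not called (adjusted p = 0.101). The call was also lost without control replicate 1 or 3 (adjusted p = 0.0540 and 0.0902) and with DESeq2 (adjusted p = 0.0875), over a range of 0.0120 to 0.0875 in 8 other settings. Against siRNA 1 the difference was 0.26 (adjusted p = 0.0227, edgeR), which was not called with DESeq2 (0.0721) or without siRNA 1 replicate 1 or 2 or siRNA 2 replicate 4 (0.0576, 0.116 and 0.152, edgeR). With siRNA 1, 0 of the 13 were called by edgeR's quasi-likelihood test, against 4.67% of all genes, and 2 had an unadjusted p under 0.05. These were Cnot8, at −0.21 on the log2 scale (adjusted p = 0.0513, edgeR) and without overlap, and Cnot6, at −0.19 (adjusted p = 0.0564, edgeR). Such small margins depend on the setting: 2 of the 13 were called with TMM scaling, with edgeR's exact test, without a filter and with only the groups compared, 1 with DESeq2 and with the stricter filter, and 0 without Gm26917 in the totals. The medians of the list were 0.00 with siRNA 1, −0.04 with siRNA 2 and 0.04 between the siRNAs.

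Among genes of the RNA exosome and its cofactors, which degrade RNA from the 3′ end, 0 of 16 were called with siRNA 1 by edgeR's quasi-likelihood test, by DESeq2 or by edgeR's exact test, and 3 had an unadjusted p under 0.05. Of all genes 4.67% were called. With siRNA 2, 2 of the 16 were called (12.5%, against 9.72%). The core subunit Exosc5 fell by 0.18 on the log2 scale (adjusted p = 0.0305, edgeR quasi-likelihood test), from 92.8, 92.8 and 96.0 CPM to 83.7, 85.2, 85.3 and 77.1 CPM, below control in 4 of 4 libraries. Mtrex, the helicase that feeds RNA to the nuclear exosome, rose by 0.15 (adjusted p = 0.0427, edgeR), from 186, 197 and 183 CPM to 206, 202, 205 and 223 CPM. The call of Mtrex was lost under 6 of 8 other settings, which gave adjusted p-values of 0.0388 to 0.149, and on leaving out any of 6 libraries (up to 0.196, without control replicate 3). That of Exosc5 was lost without a filter on low counts (0.0564) and on leaving out any of 5 libraries (up to 0.132, without control replicate 3).

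Between the siRNAs 3 of the 16 exosome genes were called (18.8%, against 7.44% of all genes): Exosc5 (−0.17), Exosc7 (−0.18) and Ttc37 (0.21), a subunit of the SKI complex that serves the cytoplasmic exosome (adjusted p = 0.0393, 0.0413 and 0.00629, edgeR quasi-likelihood test). Ttc37 was at 108, 124, 112 and 112 CPM with siRNA 1 and at 137, 128, 126 and 136 CPM with siRNA 2, with no overlap, and its call was kept in every alternative and on leaving out any library. The calls of Exosc5 and Exosc7 were lost with DESeq2 (adjusted p = 0.0605 and 0.0772), without a filter (0.0718 and 0.0793) and with only the groups compared (0.0520 and 0.0521). Exosc5 also lost its call without siRNA 1 replicate 1, 2 or 4 or siRNA 2 replicate 1 or 4 (up to 0.157, edgeR), and Exosc7 without any siRNA 1 library or siRNA 2 replicate 1, 3 or 4 (up to 0.107, edgeR). Neither Ttc37 nor Exosc7 was called against control with either siRNA. The list medians were −0.02, −0.02 and −0.01 in the comparisons of siRNA 1 with control, siRNA 2 with control and siRNA 2 with siRNA 1.

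No gene of nonsense-mediated decay, the pathway that recognises premature stop codons, was called. For the 10 genes of this list, including Upf1 and Smg1, the count was 0 in each comparison by edgeR's quasi-likelihood test, DESeq2 and edgeR's exact test. Of all genes 4.67%, 9.72% and 7.44% were called, so for 10 genes a count of 0 is near the background. At an unadjusted p under 0.05 the edgeR quasi-likelihood counts were 0 with siRNA 1, 1 with siRNA 2 and 1 between the siRNAs. The medians were 0.02 in each comparison. For the 6 other hydrolases that can act on cap structures, such as Nudt3 and Nudt12, no gene was called by the same tests, 0 had an unadjusted p under 0.05 in any comparison, and the medians were −0.03, −0.02 and −0.01.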

How the data were processed

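The authors deposited counts: whole numbers of reads per Ensembl gene for 11 libraries. The study's methods name Cutadapt for trimming, STAR for alignment to GRCm38, Picard for removing PCR duplicates and featureCounts for counting. The summary lines in the files have the layout of another counting program, HTSeq-count, so the tool behind the deposited counts is uncertain. In the 10 files with summary lines, 39.3% to 44.3% of reads had no feature and 0.963% to 1.05% were ambiguous; these lines were left out. Symbols and exon lengths came from the GENCODE annotation of GRCm38 (54809 identifiers matched). Genes above 1 CPM in at least 4 libraries (16073, including all 10 genes described) entered the quasi-likelihood test of edgeR 4.0.16 (R 4.3.3) on all groups, scaled by total counts, with Benjamini-Hochberg adjustment over all of them. The procedure was tested on simulated counts for siRNA 1 against control. It called 85 of 100 genes changed by 1 on the log2 scale and 61 of 100 changed by 0.5. Smaller changes, such as those called for the 10 genes, were not simulated. Alternatives were TMM, DESeq2 1.42.0, exactTest, other filters, only the groups compared, a replicate block, totals without Gm26917 and leaving out each library. The members and lists were chosen with earlier results of these data known. Wider-list genes were named if called in any comparison; motif and ratio were chosen after seeing the data. Intervals are 95%. One result from the wider lists is not reported here.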

Additional observations from a re-analysis of the deposited data

Results flagged for a closer look

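In the siRNA 2 group, Cnot6l was at 45.1 CPM in replicate 4, while the other 3 libraries lay between 37.1 and 38.4 CPM, a gap that is large against the range of the group. Of 40 groups of 4 libraries examined in this way this was the 1 set apart. Chance alone sets apart about 1 in 20 groups, so a single one is no more than chance gives.

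Differences between the CMTR1 siRNAs that passed the test of the difference itself (edgeR quasi-likelihood, siRNA 2 against siRNA 1) were found for RNA decay genes. The log2 difference was 0.17 for Dcp2, which was lower than control with siRNA 1. Lsm14b, higher than control with siRNA 1, differed by −0.16. The differences of Pnrc1 (0.29) and Cnot6l (0.26) go with calls as higher with siRNA 2, and those of Exosc5 (−0.17) and Ddx6 (−0.14) with calls as lower with siRNA 2. Ttc37 (0.21) and Exosc7 (−0.18) were not called against control with either siRNA. Over all genes tested 7.44% were called in this comparison. Of the calls listed here, only that of Ttc37 was kept in every alternative and on leaving out any library. Those of Lsm14b, Pnrc1, Cnot6l, Exosc5 and Exosc7 were lost with DESeq2.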

How the results depend on the processing

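Calls of Dcp2 (siRNA 1, and siRNA 2 against siRNA 1) kept their direction and side of the threshold under TMM, DESeq2, exactTest, both filters, only the groups compared, the replicate block and totals without Gm26917. For siRNA 2, TMM called 0 of the 10 genes and DESeq2 0 of 9, with no adjusted p for Nudt16. The value of Xrn2 with siRNA 1 turned to −0.019 (TMM), −0.023 (DESeq2) and −0.0086 (block), that of Cnot6l with siRNA 1 to −0.024 (block), and that of Dcp2 with siRNA 2 to −0.019 (TMM), −0.023 (DESeq2) and −0.0013 (without Gm26917). None of these was called. Of the wider lists, 4 genes were called with siRNA 1 under TMM, exactTest, no filter and only the groups compared. With siRNA 2 the count was 3 under DESeq2, 3 without a filter and 2 with the block, and between siRNAs 3 under DESeq2 and 5 without a filter. Genes of the 10 without overlap numbered 1 (siRNA 1) and 0 (siRNA 2) under TMM. DESeq2 called 958 genes with siRNA 2 and 740 between siRNAs. Without Gm26917 in the totals, control levels were higher by construction, at 11.7 (Dcp1a), 2.45 (Dcp1b), 28.1 (Dcp2), 10.2 (Edc3), 31.7 (Edc4), 6.88 (Xrn1), 13.3 (Dxo) and 26.9 (Dcps) CPM per kb. Nudt16 was not tested under the stricter filter. The cause of the other shifts was not tested.

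Replicate numbers did not pair the libraries: deviations of same-numbered libraries correlated at a mean r of 0.0102 (−0.0645 to 0.0696 over 10 pairs), and the own number correlated best in 7 of 20 cases. The block called 840, 1486 and 1242 genes in the comparisons of siRNA 1 with control, siRNA 2 with control and siRNA 2 with siRNA 1, beside 751, 1562 and 1196. Under it Cnot6l, Exosc5 and Mtrex with siRNA 2 and Pou5f1 with siRNA 1 were not called (adjusted p = 0.0592, 0.0622, 0.105 and 0.0586, edgeR quasi-likelihood test).

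Leaving out single libraries gave 355 to 852 called genes with siRNA 1, 807 to 1658 with siRNA 2 and 724 to 1365 between siRNAs. Of the 10 genes 0 to 1 were called in each comparison, and of the wider lists 2 to 4, 1 to 5 and 2 to 8. Genes without overlap numbered 2 to 3, 1 to 3 and 1 to 3. Signs of values near 0, none called, turned. With siRNA 1 they ran from −0.043 to 0.047 (Xrn2), −0.0044 to 0.065 (Cnot6l), −0.025 to 0.0034 (Exosc5) and −0.035 to 0.035 (Ddx6). With siRNA 2 they ran from −0.012 to 0.033 (Dcp2), −0.039 to 0.0097 (Edc4), −0.052 to 0.038 (Xrn2) and −0.25 to 0.43 (Nudt16). Between siRNAs they ran from −0.017 to 0.057 (Edc3), −0.019 to 0.052 (Xrn1), −0.032 to 0.018 (Xrn2), −0.056 to 0.061 (Dxo) and −0.13 to 0.024 (Dcps). Depth limits Nudt16 most, with at most 15 reads per library.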
